A study of Mus musculus with 147 samples.

Results

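The Adam genes encode membrane-anchored proteins that carry a disintegrin domain and a metalloprotease domain. Their RNA was followed in single mouse cells from the early embryo to the adult testis. The members were all rows of the count table whose symbol was Adam followed by a number, a rule that leaves out the secreted Adamts genes. It found 33 genes among the 31053 in the table. All 33 passed the filter on low counts, and together they held 2282834 UMIs (unique molecular identifiers, each standing for 1 captured RNA molecule).

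The cells came from wild-type offspring of C57BL/6 females crossed with BVSC males, which carry the Blimp1-mVenus and Stella-ECFP transgenes. Both reporters are driven by genes of the germ line and mark primordial germ cells. No reporter gate was used at E6.5 and E7.5, whose cells came from epiblast or embryo. Cells of E8.5 to E18.5 were sorted by reporter fluorescence, with reporter-negative cells of the gonad added from E11.5, and those of postnatal testis were taken without a gate. At PND30 cells were sorted by DNA content with Hoechst into 1N, 2N and 4N fractions, and 1 unsorted library was added. Helq-null cells were not analysed here. After the filter 11598 wild-type cells remained, and counts were summed over the cells of each time-point, replicate and class into pools of 10 to 476 cells.

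Classes were set by marker genes, none of them an Adam gene. From E9.5 on, 8129 cells were classed as germ cells (Ddx4, Dazl and other germ line genes), 1330 as somatic cells of the gonad (Sertoli, interstitial and Leydig genes) and 322 as neither. Of 1857 reporter-positive cells 1748 were classed as germ cells, and of 572 reporter-negative cells 549 were classed as somatic. PND35 and adult germ cells were divided by meiotic and spermatid genes into 828 of a spermatocyte class, 190 of a spermatid class and 437 of neither. Pools held 583976 to 146125943 UMIs, and levels are given as counts per 1000000 UMIs of the pool (CPM). In pooled cells, fewer cells of a type and less RNA per cell cannot be told apart. Replicate numbers came from the cell names. The p-values rest on a spread between pools that was estimated for each gene over all groups together, since several groups have few pools. Many groups mix time-points. Pools of the same animals were treated as separate in the main fit, and the replicate as a block was an alternative.

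Some pools stood apart. The spermatid gene Prm1 exceeded 5 CPM in 7 of 45 germ cell pools before PND30 and in 3 of 10 embryo pools. It reached 42 CPM in replicate 2 of PND8, 39.6 CPM in replicate 2 of PND12 and 38 CPM in replicate 2 of PND14, against 732 to 871 CPM in the spermatid class. Somatic marker genes summed to over 500 CPM in 7 germ cell pools before PND30. The spermatocyte-class pool of adult replicate 1 held 581 CPM of somatic markers, against 35.5 to 39.1 CPM in the other 3 pools of that class. Calls that changed without these pools are given both ways.

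ADAM proteins with an intact zinc-binding site cut other proteins at the cell surface and so release their outer parts, a process called shedding. ADAM10 sheds Notch receptors and N-cadherin, and ADAM17 sheds TNF and ligands of the EGF receptor. Other members lack the catalytic residues and act in adhesion. A large group of members is made in the testis, where ADAM2 pairs with ADAM1B to form fertilin and, together with ADAM3, takes part in the passage of sperm through the oviduct.

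The zinc-binding motif divides the family, and its coding sequence is shown to let the shedding enzymes be set beside the testis members. A search of translated GENCODE M21 coding sequences found the motif in 20 of the 33 members and in 69 of 21888 protein-coding genes (0.315%). It was absent from Adam2, Adam3, Adam4, Adam5, Adam6a, Adam6b, Adam7, Adam11, Adam18, Adam22, Adam23, Adam29 and Adam32. Capitals mark the codons of the 3 zinc-binding histidines and of the catalytic glutamate in mm10, and the Adam10 site is split by an intron. The site of Adam39 has the same letters as that of Adam20, and the site of Adam1a the same as that of Adam1b.
Adam9, chr8:24990326-24990358, minus strand: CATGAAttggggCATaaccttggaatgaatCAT
Adam10, chr9:70754296-70761585, plus strand: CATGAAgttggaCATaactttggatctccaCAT
Adam15, chr3:89344780-89344812, minus strand: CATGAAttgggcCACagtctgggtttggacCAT
Adam17, chr12:21336732-21336764, minus strand: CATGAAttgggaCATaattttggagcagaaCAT
Adam19, chr11:46125050-46125082, plus strand: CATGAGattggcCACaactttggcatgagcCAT
Adam1b, chr5:121501937-121501969, minus strand: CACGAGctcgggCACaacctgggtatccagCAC
Adam30, chr3:98161861-98161893, plus strand: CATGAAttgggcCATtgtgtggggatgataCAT
Adam24, chr8:40680518-40680550, plus strand: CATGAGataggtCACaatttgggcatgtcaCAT
Adam25, chr8:40754761-40754793, plus strand: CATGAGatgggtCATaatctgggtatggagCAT
Adam20, chr8:40795917-40795949, plus strand: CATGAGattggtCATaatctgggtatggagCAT
Adam26b, chr8:43520947-43520979, minus strand: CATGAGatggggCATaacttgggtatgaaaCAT
Adam34, chr8:43651554-43651586, minus strand: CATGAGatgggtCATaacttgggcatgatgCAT

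Gene structure was the second division. The coding sequence lay in 1 exon in 15 members (Adam1a, Adam1b, Adam4, Adam6a, Adam6b, Adam20, Adam21, Adam24, Adam25, Adam26a, Adam26b, Adam29, Adam30, Adam34 and Adam39). The other 18 had 16 to 30 coding exons. Of the 33 genes, 13 lie on chromosome 8 and 5 on chromosome 12, and 20 form 7 groups whose neighbours are within 500000 bases. Adam18, Adam3, Adam5, Adam32 and Adam9 follow each other on the minus strand of chr8:24602246-25016927. Adam24, Adam25, Adam20 and Adam39 lie on the plus strand of chr8:40675077-40827037, and Adam26b, Adam26a and Adam34 on the minus strand of chr8:43519762-43710049. Adam6b and Adam6a lie at chr12:113489511-113546465. Adam1a and Adam1b shared 28.9% and 30.3% of their 100-base windows and Adam6a and Adam6b 13.1% and 13.2%. Adam20, Adam25, Adam39, Adam26a and Adam26b each shared a larger part with another member than Adam6a and Adam6b did. Adam1a and Adam4 overlap protein-coding genes on the same strand, and Adam34 overlaps pseudogenes on its strand. The counts of all these genes are uncertain.

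Promoters (250 bases before to 50 after the start, RefSeq, mm10) were at hand for 17 members, with 19 entries. They are shown because the members that are used throughout and those of late spermatogenesis differ in CpG content, and capitals mark each CpG.
Adam10, chr9:70678732-70679031, plus strand: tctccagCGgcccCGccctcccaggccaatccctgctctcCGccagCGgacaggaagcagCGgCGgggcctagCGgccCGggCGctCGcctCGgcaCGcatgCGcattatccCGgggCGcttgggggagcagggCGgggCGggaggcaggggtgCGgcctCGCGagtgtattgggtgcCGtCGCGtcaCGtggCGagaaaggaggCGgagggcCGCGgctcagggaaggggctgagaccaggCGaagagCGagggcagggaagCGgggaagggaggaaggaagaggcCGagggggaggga
Adam17, chr12:21373583-21373882, minus strand: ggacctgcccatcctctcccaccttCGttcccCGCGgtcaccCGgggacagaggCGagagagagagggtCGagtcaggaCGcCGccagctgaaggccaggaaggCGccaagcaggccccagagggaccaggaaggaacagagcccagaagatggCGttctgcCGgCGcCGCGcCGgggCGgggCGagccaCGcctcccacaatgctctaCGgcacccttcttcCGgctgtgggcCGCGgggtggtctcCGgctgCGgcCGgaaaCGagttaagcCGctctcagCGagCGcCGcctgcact
Adam15, chr3:89349979-89350278, minus strand: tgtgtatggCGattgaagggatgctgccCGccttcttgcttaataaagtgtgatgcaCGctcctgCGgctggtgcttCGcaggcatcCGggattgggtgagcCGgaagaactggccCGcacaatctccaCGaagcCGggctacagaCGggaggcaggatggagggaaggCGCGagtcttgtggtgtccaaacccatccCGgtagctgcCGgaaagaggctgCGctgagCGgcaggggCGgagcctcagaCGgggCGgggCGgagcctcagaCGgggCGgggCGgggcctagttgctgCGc
Adam1b, chr5:121503386-121503685, minus strand: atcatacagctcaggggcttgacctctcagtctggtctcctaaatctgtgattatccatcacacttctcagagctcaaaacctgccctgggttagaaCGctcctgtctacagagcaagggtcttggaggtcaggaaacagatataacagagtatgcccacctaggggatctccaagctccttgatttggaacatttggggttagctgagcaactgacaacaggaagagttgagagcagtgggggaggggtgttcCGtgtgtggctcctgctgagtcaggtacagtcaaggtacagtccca
Adam25, chr8:40751958-40752257, plus strand: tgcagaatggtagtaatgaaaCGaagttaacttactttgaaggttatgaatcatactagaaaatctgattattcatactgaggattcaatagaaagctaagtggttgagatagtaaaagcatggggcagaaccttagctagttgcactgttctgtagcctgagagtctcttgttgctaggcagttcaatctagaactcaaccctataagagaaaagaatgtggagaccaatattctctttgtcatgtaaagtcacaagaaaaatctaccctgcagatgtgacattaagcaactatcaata
Adam26b, chr8:43528088-43528387, minus strand: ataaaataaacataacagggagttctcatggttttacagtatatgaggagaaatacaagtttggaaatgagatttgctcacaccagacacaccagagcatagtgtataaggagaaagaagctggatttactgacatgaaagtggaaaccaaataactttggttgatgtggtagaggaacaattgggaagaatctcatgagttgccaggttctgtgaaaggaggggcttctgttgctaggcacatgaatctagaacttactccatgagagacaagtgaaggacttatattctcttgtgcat
Adam29, chr8:55906915-55907214, minus strand: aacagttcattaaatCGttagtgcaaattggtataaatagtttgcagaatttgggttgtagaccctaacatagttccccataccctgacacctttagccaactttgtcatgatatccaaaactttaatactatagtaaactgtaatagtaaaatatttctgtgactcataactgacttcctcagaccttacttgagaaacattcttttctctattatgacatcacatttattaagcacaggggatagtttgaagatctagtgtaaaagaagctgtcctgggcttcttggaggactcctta
Adam6b, chr12:113489315-113489614, plus strand: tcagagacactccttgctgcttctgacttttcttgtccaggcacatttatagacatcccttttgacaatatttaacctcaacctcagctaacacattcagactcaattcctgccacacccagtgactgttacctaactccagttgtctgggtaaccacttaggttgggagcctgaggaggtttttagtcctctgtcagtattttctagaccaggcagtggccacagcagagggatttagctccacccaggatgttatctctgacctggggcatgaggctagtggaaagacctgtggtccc

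The 9 promoters of members that rose in the spermatid class, as described further on, held 0 to 4 CpG with a median of 1. The 10 promoters of the other 8 members held 2 to 32 CpG with a median of 15. Over all 32851 promoters the median was 7, with 38% at 4 or fewer and 28.1% at 19 or more. Both strands were searched for a few motifs. TATAAA was found in 3 of the 9 promoters (Adam6a, Adam6b, Adam29), in 0 of the 10, and in 13.6% of all. The cAMP response element TGACGTCA was found in none of the 19 and in 1.79% of all, and its core TGACG only in the Adam10 promoter, against 20.8% of all.

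The members fell into sets that were high at different times (heat map of the 33 members by stage). In germ cells of E9.5 to E13.5, 3 members had a mean of at least 10 CPM, against 8 from E17.5 to PND1, 19 in 4N cells of PND30 and 22 in the spermatid class. Means of at least 100 CPM were reached by 1 member in germ cells of E9.5 to E10.5, by none from E11.5 to PND14, by 7 members in 4N cells and by 11 in the spermatid class. By stage group, 10 members were highest in the spermatid class, 5 in 4N and 5 in 1N cells, 4 in germ cells of E17.5 to PND1 and 5 in somatic pools.

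**Figure D1:**
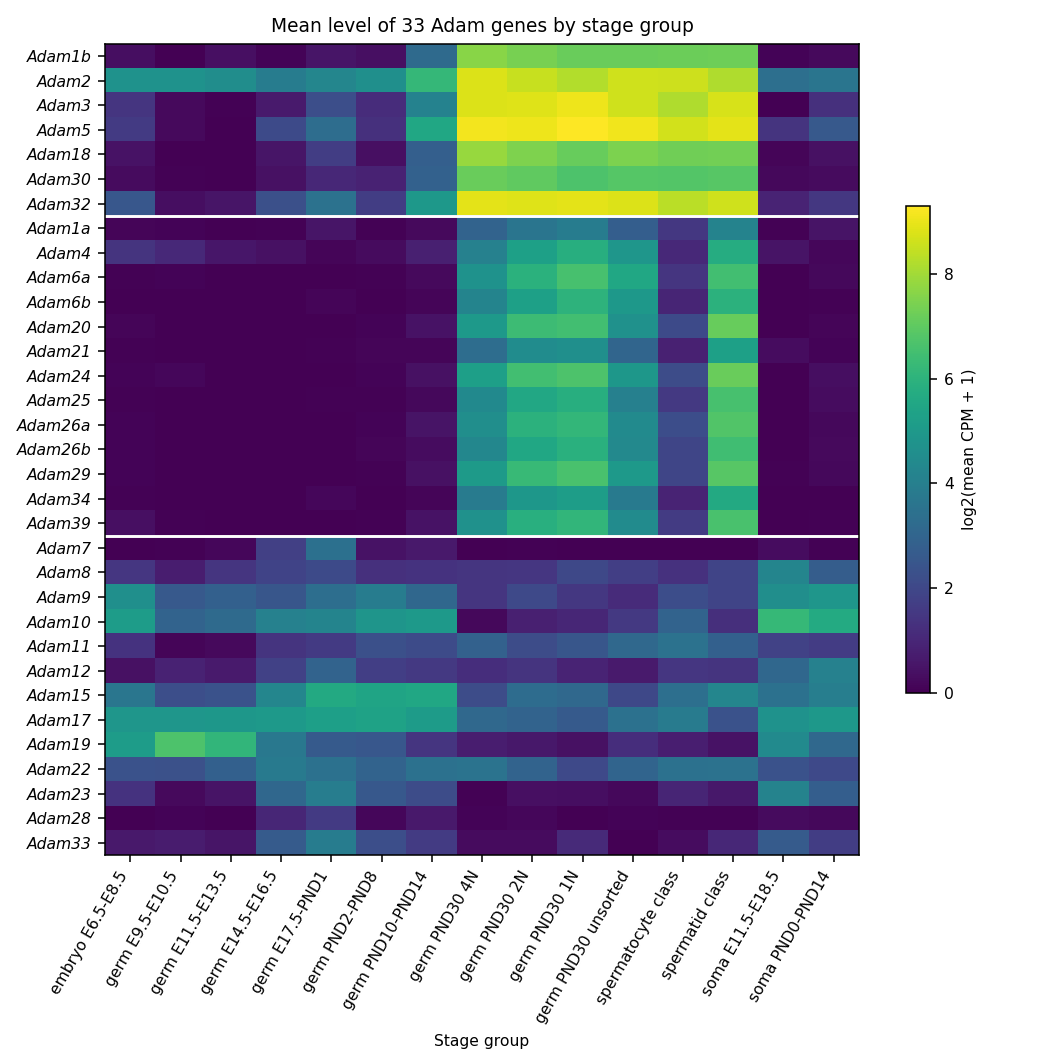
Heat map of log2(mean CPM + 1) for the 33 members (rows) in 15 groups of pools (columns), with white lines between 7 members high from 4N cells on, 13 members high in the spermatid class and the other 13. The 13 members of the middle block are dark until PND30, and Adam19 is brightest in germ cells of E9.5 to E13.5.

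Adam19, which encodes the shedding enzyme meltrin beta, had its highest mean in migrating and early gonadal germ cells. Its level was 110 and 79.5 CPM at E9.5, 78.8, 129.6 and 117.5 CPM at E10.5, 122.5 and 102.8 CPM at E11.5, and 62.9 and 76.5 CPM at E12.5. It was 16.4 and 31 CPM at E13.5, 13.9 and 22.3 CPM at E14.5, 10.4 and 13.54 CPM at E15.5, and 7.06 and 5.35 CPM at E16.5. Both pools of E13.5 lay below all earlier ones and overlapped with those of E14.5. Between E11.5 to E13.5 and E14.5 to E16.5, when male germ cells enter mitotic arrest, Adam19 fell by 2.57 ± 0.66 on the log2 scale (SE, edgeR quasi-likelihood test, adjusted p = 0.00123, 6 pools against 6). Without replicate 1 the adjusted p was 0.0944. From PND10 on no germ cell pool exceeded 3.54 CPM. Among the embryo pools of E6.5 to E8.5, which entered no test, Adam19 ranged from 1.31 to 70.4 CPM.

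Between E9.5 to E10.5 and E11.5 to E13.5 Adam1b was the only member past an adjusted p of 0.05, against 3.08% of all 27459 genes that were higher and 1.48% that were lower. It had 0 UMIs in the 5 earlier pools and 49 in the 6 later ones, 47 of them in replicate 1 of E13.5. Without replicate 1, or without replicate 2, it was not called.

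At mitotic arrest 11 members rose and 1 fell, against 33.6% and 8.74% of all genes, so the share of rising members (33.3%) was near the background. Without replicate 1 there were 4 calls and without replicate 2 there were 6. Without the germ cell pools that held over 500 CPM of somatic markers 8 calls were left, and Adam7, Adam12, Adam32 and Adam33 were lost. The median over members was 0.54 on the log2 scale and over all genes 0.77. The rising members were Adam5, Adam7, Adam11, Adam12, Adam15, Adam18, Adam23, Adam28, Adam30, Adam32 and Adam33. Adam5, a sperm surface protein without a zinc site, had 1 UMI at E12.5 and 2 at E13.5, 0 at E11.5 and E14.5, then 1.65 and 0.958 CPM at E15.5 and 10.1 and 6.66 CPM at E16.5. It rose by 6.97 ± 1.76 (adjusted p = 0.00101, edgeR), and the groups overlapped at 0. Adam18 had 69 UMIs against 0 and Adam30 54 against 0, so that they were at least 22.7-fold and 17.8-fold higher against a floor of 3 UMIs over the group, although no pool exceeded 1.15 CPM of Adam18 or 0.86 CPM of Adam30. Adam15 (metargidin), named outside the rule, was 1.13 to 10.8 CPM before and 7.2 to 30.4 CPM after arrest, a rise of 2.01 ± 0.49 (adjusted p = 0.000798, edgeR).

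Of the 11 members that rose at arrest, 7 fell again in spermatogonia, and Adam11, Adam15, Adam30 and Adam33 did not pass the test there. At that step 34% of all genes fell, and the share among all genes that rose at arrest was not counted. In germ cells of E17.5 to PND1 Adam5 was 4.01 to 12.7 CPM (median 9.22) in 8 pools. From PND2 to PND7 it was 0 to 0.874 CPM in 12 pools, and it was 5.04 and 12.52 CPM in the 2 pools of PND8. In PND2 to PND8 against E17.5 to PND1 it fell by 2.49 ± 0.79 (adjusted p = 0.00704, edgeR). Adam32, another sperm surface member, was 4.18 to 16.2 CPM (median 10.4) and then 0.0902 to 8.5 CPM (median 0.921), a fall of 2.15 ± 0.68 (adjusted p = 0.00656, edgeR). Adam18 was 0.966 to 3.76 CPM (median 2.25) and then 0 to 1.77 CPM (median 0.0465), a fall of 2.6 ± 0.74 (adjusted p = 0.00262, edgeR). Each of the 3 genes overlapped between the groups.

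In that comparison 8 members rose and 8 fell, against 14.6% and 34% of all genes, with a median of -0.01 over members and -0.54 over all genes. The falling members were Adam1a, Adam5, Adam7, Adam12, Adam18, Adam23, Adam28 and Adam32. Adam9 and Adam10, both shedding enzymes of wide use, rose by 0.95 ± 0.3 (adjusted p = 0.00607) and 0.82 ± 0.33 (adjusted p = 0.0321, edgeR). Without the germ cell pools over 500 CPM of somatic markers these values were 0.26 (adjusted p = 0.59) and 0.675 (adjusted p = 0.111, edgeR), and Adam20 and Adam24 were lost as well. Both the Adam9 and the Adam10 call were also lost with a 4-fold marker excess in the classing, without replicate 2, and without PND8 and E17.5. The other 6 rising members (Adam20, Adam24, Adam26a, Adam26b, Adam29 and Adam39) had 28 to 59 UMIs over 14 pools against 0 to 2 UMIs over 8. Adam29, for instance, had 3 and 32 UMIs in the pools of PND8 and 0 in the other 12. The PND8 pools also held Prm1 at 8.77 and 42 CPM, and its part in the result was not tested. Without the pools over 5 CPM of Prm1 these 6 members, Adam12 and Adam23 were lost, and Adam2 and Adam17 (higher) and Adam3 (lower) gained. Without PND8 and E17.5, 8 members were called and all 8 were lower. Without replicate 1 there were 5 calls and without replicate 2 there were 4.

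Adam10, Adam17 and Adam15 had their highest germ cell group means between E17.5 and PND14 and were low in sorted cells of PND30 (plot of shedding members by pool). Adam10 was 4.27 to 8.95 CPM in 5 pools of E9.5 to E10.5, 12 to 19.7 CPM in 6 pools of E14.5 to E16.5 and 19.2 to 37.1 CPM (median 28) in 14 pools of PND2 to PND8. At PND10, PND12 and PND14 it was 33.1, 33.2, 46.3, 20.3, 36.7 and 21.4 CPM. In 4N cells of PND30, the fraction that holds meiotic cells before the first division, it was 0.269 CPM in replicate 1 and 0 in replicate 2. It fell by 6.72 ± 0.91 between PND10 to PND14 and 4N cells (adjusted p = 3.9e-09, edgeR, 2 pools against 6), with no overlap. TMM scaling raised the fitted differences of this comparison by 0.92 over the log2 ratio of CPM, and the median over all genes was 0.25.

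Adam17 was 21.1 to 53.4 CPM in the germ cell pools of E9.5 to PND14, with group means between 28.6 and 40 CPM. Its mean was 28.6 ± 3.86 CPM (SD, n = 5) at E9.5 to E10.5 and 40 ± 6.83 CPM (SD, n = 14) at PND2 to PND8. In 4N cells it was 6.67 and 9.01 CPM, below each of the 6 pools of PND10 to PND14 (30.8, 36.3, 46.4, 25.1, 35.6 and 23.8 CPM), and it fell by 1.14 ± 0.37 (adjusted p = 0.00724, edgeR). Adam15 was 57, 59.7, 51.5, 25, 53.1 and 25.6 CPM at PND10 to PND14 and 5.69 and 1.21 CPM in 4N cells, a fall of 2.76 ± 0.81 (adjusted p = 0.00294, edgeR). In both genes and in Adam10 the lowest pools of PND10 to PND14 were the replicates 2 of PND12 and PND14, the pools that held Prm1. Adam23, named outside the rule, was the fourth member that fell, with 5 UMIs against 922.

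**Figure D2:**
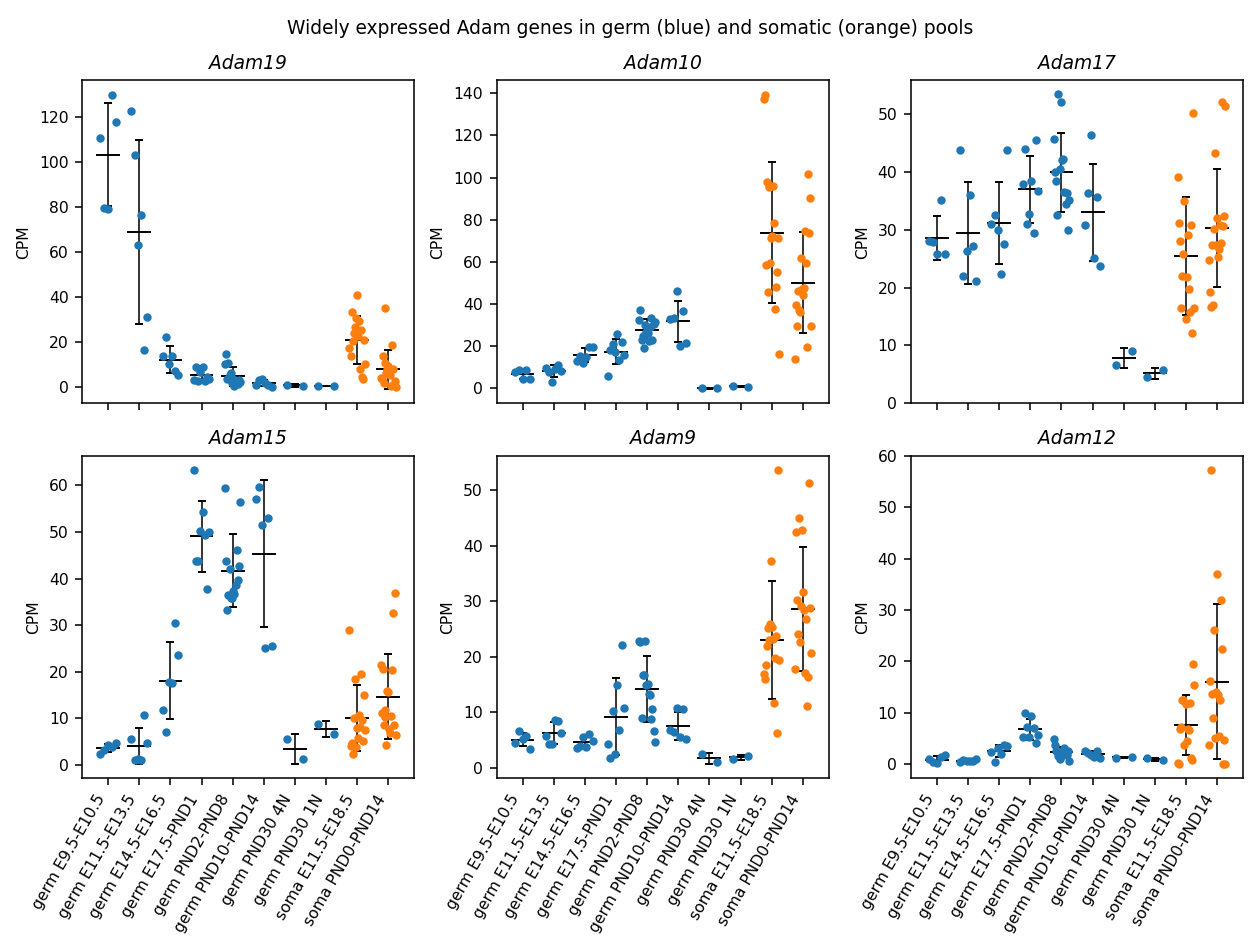
CPM of Adam19, Adam10, Adam17, Adam15, Adam9 and Adam12 in each pool (points; germ cells blue, somatic cells orange) by stage group, with the mean and SD of each group as bars. Adam19 sits between 78.8 and 130 CPM at E9.5 to E10.5 and Adam10 at no more than 0.269 CPM in 4N cells, and somatic pools of Adam9 lie above most germ cell pools.

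Adam9 (meltrin gamma) was 3.42 to 6.62 CPM at E9.5 to E10.5, 4.54 to 22.9 CPM (median 14.1) at PND2 to PND8 and 6.8, 6.45, 10.7, 5.48, 10.6 and 5.17 CPM at PND10 to PND14. It fell by 0.93 ± 0.33 between the last of these groups (adjusted p = 0.0392, edgeR), although the ranges overlapped. This call was lost without replicate 1 (adjusted p = 0.0628), without replicate 2 (0.852) and without the pools that held Prm1 (0.209), and under 3 other settings (0.0582 to 0.159, edgeR). It was 2.38 and 0.967 CPM in 4N cells and did not pass the test there.

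Between PND2 to PND8 and PND10 to PND14 several members of the sperm surface rose, with their highest values in replicates 2 of PND12 and PND14. In this comparison 14 members rose and 1 fell, against 10.9% and 6.29% of all genes, and the median was 1.85 over members and -0.01 over all genes. Adam2, which encodes fertilin beta, was 10.4 to 33.9 CPM in each germ cell pool of E9.5 to PND8. At PND10 it was 12.6 and 15 CPM, at PND12 13 and 182 CPM, and at PND14 34.2 and 179 CPM, so 2 of the 6 pools were far above the rest. It rose by 1.69 ± 0.3 (adjusted p = 1.24e-05, edgeR). Adam5 was 1.44, 1.87, 0.6252, 184, 4.06 and 79.3 CPM in the same pools and rose by 5.01 ± 0.87 (adjusted p = 9.37e-06, edgeR).

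Adam3, which encodes cyritestin, was 1.24, 1.38, 0, 82.6, 0.808 and 11.8 CPM in these pools and 0 to 10.9 CPM (median 0.076) at PND2 to PND8, a rise of 3.69 ± 0.82 (adjusted p = 0.00056, edgeR). Adam1b, the partner of ADAM2 in fertilin, was 0.433, 1.4, 2.08, 33.1, 1.04 and 11.6 CPM and rose by 4.75 ± 0.66 (adjusted p = 7.73e-08, edgeR). Adam18 was 0.124, 0.424, 0, 31.7, 0.16 and 3.96 CPM and rose by 4.22 ± 0.78 (adjusted p = 3.37e-05, edgeR). In each of these genes the replicates 2 of PND12 and PND14 held the highest 2 values of the group.

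Those pools also held the most spermatocyte marker RNA of their time-points (1830 CPM against 1488 CPM at PND12, and 2556 CPM against 1653 CPM at PND14) and the most Prm1. The 7 genes Adam1b, Adam2, Adam3, Adam5, Adam18, Adam30 and Adam32 summed to 16.8 UMIs per Prm1 UMI in replicate 2 of PND12 and 8.93 in replicate 2 of PND14, against 11.8 to 28.7 in the spermatocyte class and 2.26 to 2.81 in the spermatid class. The part of these cells in the result was not tested. Without the 7 pools that held over 5 CPM of Prm1, 3 members were called (Adam1b, Adam5 and Adam34, all higher) and the difference of Adam2 was -0.41 on the log2 scale (adjusted p = 0.453). Without the pools over 500 CPM of somatic markers Adam20 was lost and Adam19 (lower) gained. Without replicate 2 no member was called, and without replicate 1 there were 7 calls. The other rising members were Adam30, Adam32 and 7 members with 44 to 174 UMIs over the 6 pools (Adam1a, Adam20, Adam24, Adam26a, Adam29, Adam34 and Adam39).

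From PND30 on these genes were among the members with the highest levels. Adam2 was 406 and 474 CPM in 4N, 350 and 374 CPM in 2N, and 342 and 248 CPM in 1N cells. Adam3 was 423 and 478 CPM in 4N, 468 and 441 CPM in 2N, and 535 and 526 CPM in 1N cells. In 4N cells against PND10 to PND14, Adam2 rose by 3.44 ± 0.48 (adjusted p = 9.2e-09) and Adam3 by 5.67 ± 1.34 (adjusted p = 0.000263, edgeR), with no overlap between the groups. Adam5 (515 and 602 CPM), Adam32 (455 and 509 CPM), Adam18 (232 and 230 CPM), Adam1b (212 and 190 CPM) and Adam30 (150 and 137.8 CPM) rose as well.

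**Figure D3:**
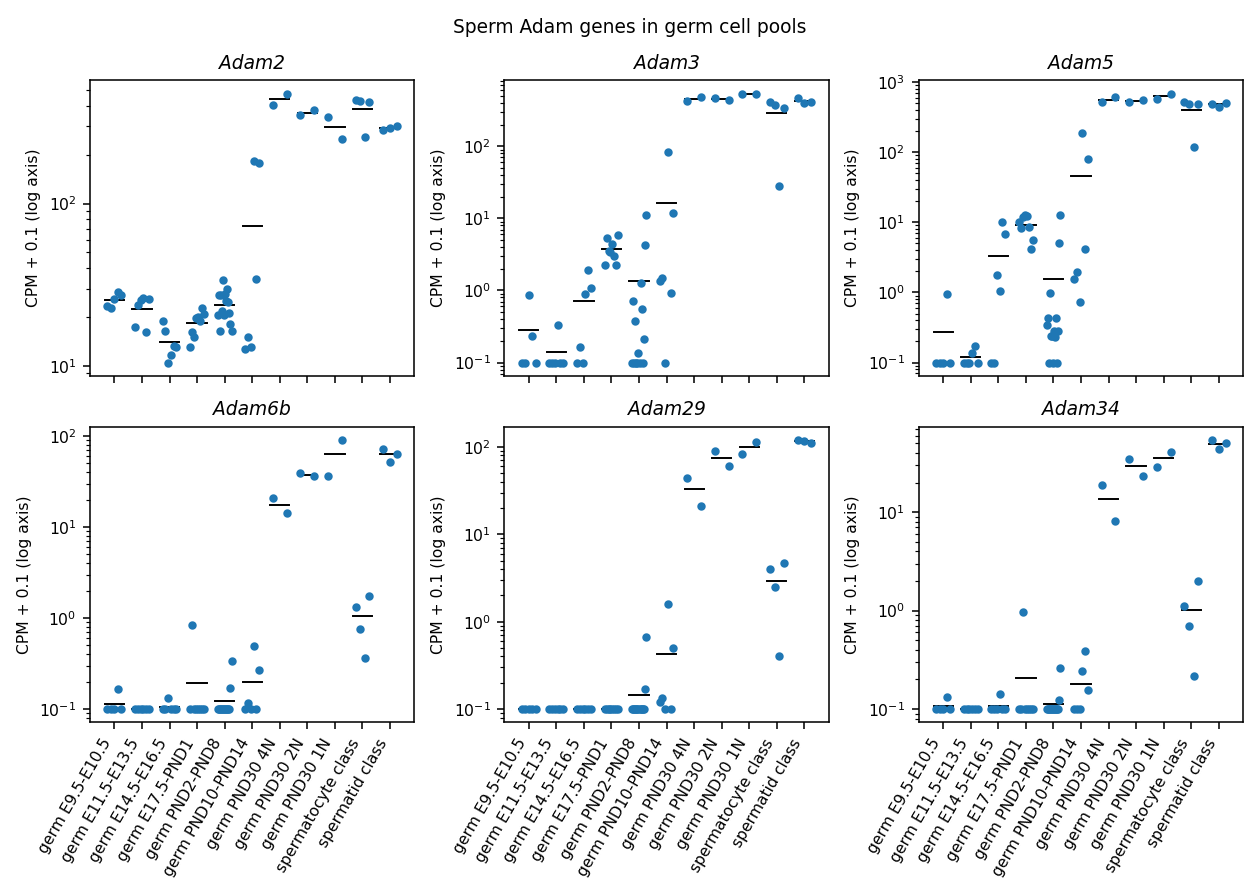
CPM + 0.1 on a log axis of Adam2, Adam3, Adam5, Adam6b, Adam29 and Adam34 in each germ cell pool by stage group, with a line at the mean of each group. Adam2 is present in each pool from E9.5 on, Adam3 and Adam5 reach over 400 CPM in 4N cells, and Adam6b, Adam29 and Adam34 are near 0 until PND30.

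In this comparison 20 members rose and 4 fell, against 32.6% and 18.2% of all genes, and the median was 5.36 over members and 0.25 over all genes. All 15 members with 1 coding exon rose and none fell, while 5 of the 18 others rose (Adam2, Adam3, Adam5, Adam18 and Adam32) and 4 fell. Without the earlier pools over 5 CPM of Prm1 all 24 calls were kept, and Adam7 and Adam9 (both lower) gained. The largest rises past the level limit were of Adam6b, Adam6a and Adam25. Adam6b was 20.47 and 14.2 CPM in 4N cells and 0 to 0.388 CPM at PND10 to PND14, a rise of 8.19 ± 1.19 (adjusted p = 8.98e-08, edgeR). Adam6a was 31.7 and 19.6 CPM against 0 to 0.647 CPM and rose by 7.92 ± 1.25 (adjusted p = 5.17e-07, edgeR). Adam25 was 29.9 and 10.4 CPM against 0 to 0.618 CPM and rose by 7.91 ± 1.35 (adjusted p = 3.29e-06, edgeR).

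The 4N fraction was mixed. By their markers 40 of its 286 germ cells were of the spermatid class, 33 in replicate 1 and 7 in replicate 2, and 0 of the 285 germ cells of the 1N fraction were of the spermatocyte class. Within the 4N fraction Adam29 was 172 and 171 CPM in the spermatid-class cells and 5.54 and 3.24 CPM in the others. Adam6a was 125.5 and 158.5 CPM in the spermatid-class cells and 2.95 and 3.2 CPM in the others, while Adam3 was 382 and 379 CPM in the first and 436 and 489 CPM in the others. When the spermatid-class cells were left out of the 4N pools, 19 members rose and 5 fell against PND10 to PND14, with 23 of the 24 calls kept, Adam4 lost and Adam9 (lower) gained. No share of all genes is given for this setting, so its counts stand without a background.

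**Figure D4:**
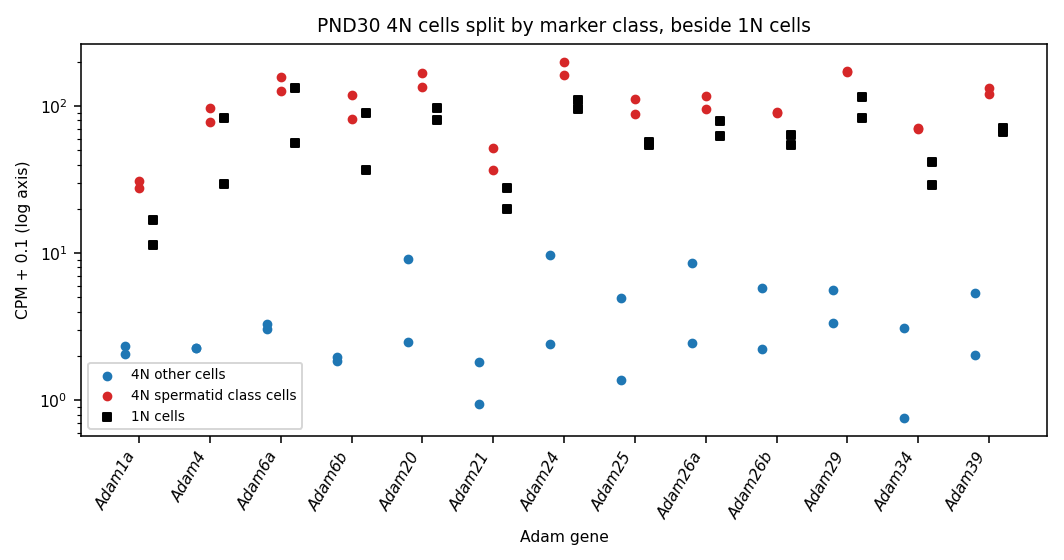
CPM on a log axis of 13 members with 1 coding exon in PND30 cells of 2 replicates: 4N cells of the spermatid class (red), other 4N cells (blue) and 1N cells (black squares). The 13 members are those that rose in the spermatid class at PND35 and adult. For each of them the red points lie above the blue ones, as for Adam29 with 172 and 171 CPM against 5.54 and 3.24 CPM. Adam1b and Adam30, which also have 1 coding exon, are not drawn and were lower in the spermatid-class cells of both replicates. Adam1b was 151.6 and 88.07 CPM in these cells against 230.4 and 201.9 CPM in the other 4N cells.

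Between the 1N and 4N fractions, which set haploid cells beside those before division, the only member called was Adam10, against 2.62% of all genes higher and 3.74% lower. Its level was 1.14 and 0.892 CPM in 1N and 0.269 and 0 CPM in 4N cells, with 75 UMIs against 21, a rise of 3.13 ± 0.82 (adjusted p = 0.00816, edgeR, 2 pools against 2). With the replicate as a block 14 members were called, 13 of them higher, and the Adam10 call was lost with a difference of 3.62 (adjusted p = 0.0756). It was also lost without replicate 2, with a difference of 2.31 (adjusted p = 0.886, edgeR). The 12 higher members with 1 coding exon under the block were Adam4, Adam6a, Adam6b, Adam20, Adam21, Adam24, Adam25, Adam26a, Adam26b, Adam29, Adam34 and Adam39. Without the spermatid-class cells in the 4N pools, 7 members were higher (Adam6a, Adam6b, Adam9, Adam10, Adam15, Adam29 and Adam34). The shares of all genes above are those of the fit without a block and with all 4N cells. No such share is given for these alternatives, so their counts stand without a background.

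At PND35 and in the adult the spermatid class was set against the spermatocyte class, 3 pools against 4. Here 13 members rose and 2 fell, against 20% and 12.4% of all genes, and the median was 0.66 over members and 0 over all genes. All 13 rising members had 1 coding exon, and the other 2 of that kind (Adam1b and Adam30) did not pass the test. Of the 18 members with several coding exons 0 rose by the edgeR test, and Adam10 and Adam17 fell. By DESeq2 5 members were higher, of which Adam15 has several coding exons and Adam1a, Adam4, Adam21 and Adam34 have 1, and Adam17 was lower. With the replicate as a block 16 were higher and 6 lower, Adam15 again among those gained. Without adult replicate 1 Adam1a and Adam10 were lost and Adam15 (higher) gained. Leaving out replicate 1 or replicate 2 left 3 and 4 calls. The shares of all genes above are those of the edgeR fit without a block, and none is given for these alternatives. By the zinc site, 9 of the 20 members that have it rose and 4 of the 13 that lack it.

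Adam6b was 72.2, 52.2 and 63.2 CPM in the spermatid class and 1.21, 0.666, 0.267 and 1.65 CPM in the spermatocyte class, a rise of 6.19 ± 1.27 (adjusted p = 0.00015, edgeR). Adam6a was 99.2, 83.6 and 85.2 CPM against 2.18, 1.31, 0.439 and 2.84 CPM and rose by 5.86 ± 1.33 (adjusted p = 0.000529, edgeR). Adam25, a testis protease of the chromosome 8 group, was 105.9, 89.3 and 89.2 CPM against 3.37, 1.56, 0.16 and 2.52 CPM and rose by 5.73 ± 1.43 (adjusted p = 0.00163, edgeR). In each of the 3 genes all spermatid-class pools lay above all spermatocyte-class pools, although the DESeq2 adjusted p was 0.0796 for Adam6b, 0.0897 for Adam6a and 0.172 for Adam25. The other 10 rose by 3.36 (Adam1a) to 5.9 (Adam34) on the log2 scale, with mean levels of 16.8 to 141.6 CPM in the spermatid class. All 4 members of the group on the plus strand of chromosome 8 and all 3 of the group around Adam26a were among them. Each of the 13 lay near 0 in the earlier germ cells, with no more than 2.78 CPM in any pool of PND10 to PND14 (Adam4).

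**Figure D5:**
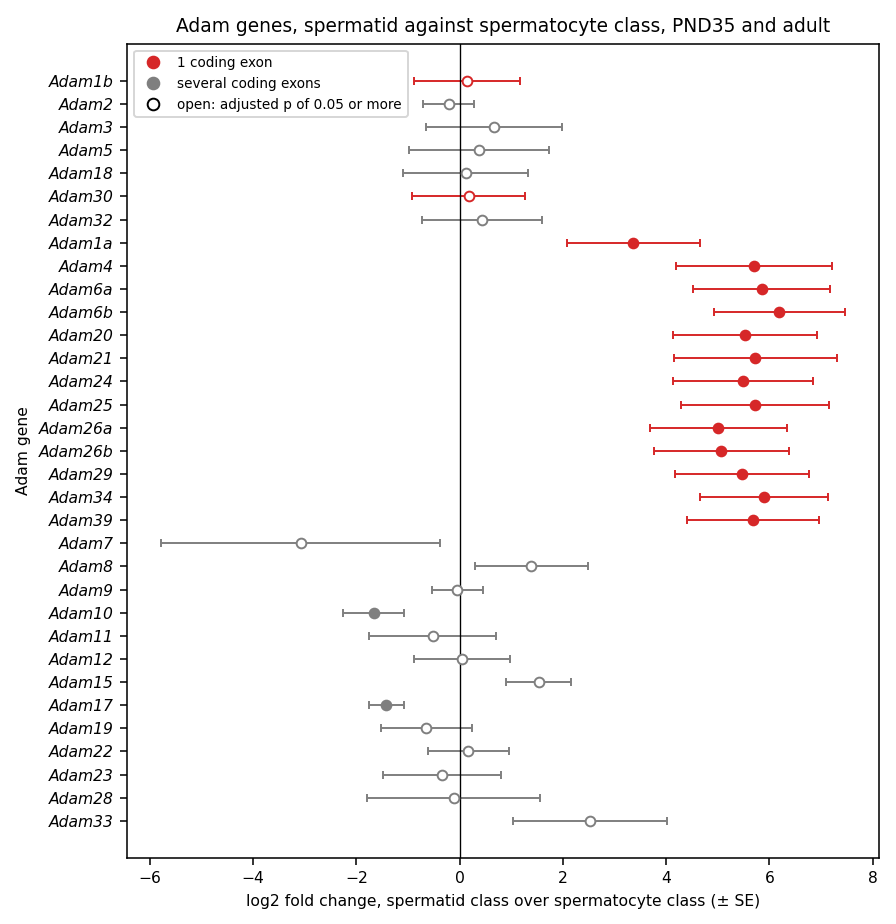
Log2 fold change (± SE) of each member in the spermatid class over the spermatocyte class at PND35 and adult, red for members with 1 coding exon, with open symbols where the adjusted p was 0.05 or more. The 13 filled red symbols lie between 3.36 and 6.19, and Adam10 and Adam17 are below 0.

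The sperm surface members that were already high in 4N cells did not pass the test between the classes in the fit without a replicate block. With the block Adam1b, Adam2, Adam18 and Adam30 were lower in the spermatid class, Adam2 by -0.605 (adjusted p = 5e-05, edgeR). Adam2 was 284, 293 and 302 CPM in the spermatid class and 431, 427, 256 and 423 CPM in the spermatocyte class. Adam3 was 460, 403 and 413 CPM against 410, 374, 27.6 and 337 CPM. Adam5 was 486, 445 and 504 CPM against 520, 490, 117.2 and 492 CPM, and Adam1b 148, 143.01 and 157 CPM against 207, 175, 20.48 and 181 CPM. In each of these genes the low spermatocyte value was that of adult replicate 1.

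Adam17 was 3.79, 4.86 and 3.56 CPM in the spermatid class and 9.55, 9.71, 21.8 and 13.1 CPM in the spermatocyte class, without overlap, and fell by 1.42 ± 0.34 (adjusted p = 0.000661, edgeR). Adam10 was 1.51, 2.05 and 0.67 CPM against 0.862, 1.04, 23.6 and 1.56 CPM and was called lower by 1.67 ± 0.59 (adjusted p = 0.0223, edgeR), but this rests on adult replicate 1. Without that pool its difference was 0.3 with an adjusted p of 0.742, and with the replicate as a block 0.13 with an adjusted p of 0.806. The Adam10 responses in the ploidy and the class comparison differed by 4.79 ± 1.01 (adjusted p = 0.0045, edgeR, against 0.889% of all genes). The responses were 3.126 and -1.665, so only the class part rests on adult replicate 1. The ploidy response sets other pools against each other, and its call was itself not kept in all settings. The difference was not fitted again without adult replicate 1.

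In the somatic cells of the gonad Adam9 and Adam10 were higher than in germ cells before and after birth, while Adam17 did not pass the test at either age. From E11.5 to E18.5, 8 members (24.2%) were higher and 3 lower in 16 somatic pools against 16 germ cell pools, against 24.1% and 27.1% of all genes, with a median of -0.23 over members and -0.37 over all genes. Adam10 was 16.49 to 139.2 CPM (median 71.4) in somatic and 3.19 to 21.3 CPM (median 12.47) in germ cell pools, a difference of 2.64 ± 0.27 (adjusted p = 3.73e-14, edgeR), and it was higher in 15 of 16 pairs of the same time-point and replicate. Adam9 was 6.24 to 53.6 CPM (median 22.5) against 1.66 to 10.1 CPM (median 4.53), a difference of 2.21 ± 0.24 (adjusted p = 3.38e-13, edgeR), and was higher in 16 of 16 pairs. Adam2 was lower in somatic pools, at 5.79 to 18.3 CPM (median 8.87) against 10.4 to 26.3 CPM (median 16.2), by -0.82 ± 0.23 (adjusted p = 0.0022, edgeR), and lower in 15 of 16 pairs.

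The other higher members were Adam8, Adam11, Adam12, Adam21, Adam23 and Adam29, the last with 5 UMIs in 1 somatic pool against 0 in the germ cell pools, and the other lower members were Adam7 and Adam22. With the replicate as a block 6 members were called, 4 higher and 2 lower. Adam11 and Adam12 were then not called, and Adam7, Adam21 and Adam29 did not pass the count filter of that fit. Without replicate 1 there were 5 calls. Adam17 was 12.1 to 50.2 CPM (median 23.9) in somatic pools and Adam19 3.51 to 40.9 CPM (median 21.7), and neither differed past the threshold from germ cells.

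After birth, in 17 somatic against 24 germ cell pools of PND0 to PND14, 5 members were higher and 9 lower, against 21.8% and 35.1% of all genes, with a median of -0.64 over members and -0.62 over all genes. Adam9 was 11.1 to 51.3 CPM (median 28.4) against 4.54 to 22.9 CPM (median 10.7), a difference of 1.42 ± 0.2 (adjusted p = 4.98e-09, edgeR). Adam10 was 14.1 to 101.5 CPM (median 46.2) against 13.3 to 46.3 CPM (median 26.6), a difference of 1.04 ± 0.23 (adjusted p = 5.09e-05, edgeR). Adam19 was 0 to 35.2 CPM (median 5.66) against 0.136 to 14.47 CPM (median 3.01), a difference of 1.33 ± 0.35 (adjusted p = 0.000722, edgeR). The somatic excess of Adam10 was smaller after birth than before, by -1.59 ± 0.35 (adjusted p = 0.000347, edgeR, against 20.1% of all genes whose difference changed).

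Adam2 was lower in somatic than in germ cells in 17 of 17 pairs after birth, at 3.87 to 41.1 CPM (median 9.25) against 12.6 to 182 CPM (median 21.4), by -1.41 ± 0.22 (adjusted p = 9.17e-08, edgeR). Adam15, named outside the rule, was lower in 17 of 17 pairs, at 4.26 to 36.8 CPM (median 11.2) against 25 to 59.7 CPM (median 42.5), by -1.4 ± 0.28 (adjusted p = 9.88e-06, edgeR). Adam1b, Adam30 and Adam4 had 5, 11 and 2 UMIs over the somatic pools against 3802, 3423 and 322 over the germ cell pools. These sums are uneven over the germ cell pools, with Adam1b at 33.08 CPM in replicate 2 of PND12, which also held 39.6 CPM of Prm1. The comparison was not repeated without the pools that held Prm1. By pairs of the same time-point and replicate, the 3 genes were higher in germ cells in 15, 14 and 11 of 17. The pools differed in depth, with 583976 to 13494400 UMIs per somatic and 8391199 to 100263918 UMIs per germ cell pool. In CPM, Adam4 was 0 to 1.285 in somatic and 0 to 2.78 in germ cell pools. Adam3, Adam7, Adam22 and Adam32 were lower too, and Adam8 and Adam12 higher. With the replicate as a block 13 members were called, with Adam18 and Adam33 (both lower) gained, and Adam1b, Adam4 and Adam7 did not pass the count filter of that fit. Without replicate 1 there were 8 calls. The highest somatic values of Adam2 (41.1 CPM) and Adam3 (12.9 CPM) were in replicate 2 of PND14, a pool of 10 cells with 57.8 CPM of Prm1, and its part was not tested.

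Between somatic cells after and before birth 0 members rose and 4 fell in edgeR (Adam4, Adam8, Adam19 and Adam23), against 22.4% of all genes called in either direction. At an unadjusted p under 0.05, 2 members were higher, and DESeq2 called 2 higher. Adam19 was 0 to 35.2 CPM (median 5.66) after and 3.51 to 40.9 CPM (median 21.7) before birth, a fall of 1.33 ± 0.39 (adjusted p = 0.00826, edgeR). Adam4 had 2 UMIs against 46, of which 12 were in replicate 2 of E11.5 and 24 in replicate 1 of E14.5. Without replicate 1, or without replicate 2, no member was called. The makeup of the somatic pools also differed before and after birth. Median sums were 1405 and 3191 CPM for Sertoli, 2368 and 2723 CPM for interstitial and 390 and 226 CPM for Leydig markers. The part of this makeup in the result was not tested.

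Genes that act with these members were followed as 3 lists. The first held 11 genes that ADAM3 or fertilin need on the way to the sperm surface, among them the chaperones Clgn (calmegin) and Calr3. At mitotic arrest 5 of the 11 rose and 1 fell, against 33.6% and 8.74% of all genes, with a median of -0.22 over the list and 0.77 over all genes. Clgn went from 2.1 to 5.46 CPM to 12.8 to 106.7 CPM, a rise of 4.17 ± 0.64 (adjusted p = 3.54e-07, edgeR). In 4N cells against PND10 to PND14, 8 of the 11 rose and 1 fell, against 32.6% and 18.2% of all genes, with a median of 4.24 over the list and 0.25 over all genes. Prss37, a testis protein needed for ADAM3 processing, was 32.7 and 40.6 CPM against 0 to 1.75 CPM and rose by 7.03 ± 1.26 (adjusted p = 6.97e-06, edgeR). In the spermatid class 4 rose (Ace, Calr3, Pmis2 and Prss37) and Tpst2 fell, against 20% and 12.4% of all genes. Pmis2 was 233 to 273 CPM against 3.26 to 13.8 CPM, a rise of 5.15 ± 1.35 (adjusted p = 0.00209, edgeR).

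The second list held 15 genes that control shedding: the iRhoms, which carry ADAM17 to the cell surface, the tetraspanins that carry ADAM10, and the TIMP inhibitors. In 4N cells against PND10 to PND14, 8 of the 15 fell and 2 rose (Timp2 and Tspan5), against 18.2% and 32.6% of all genes, with a median of -1.89. Rhbdf2, the gene of iRhom2, was 0.0641 and 0 CPM against 12.1 to 31.8 CPM and fell by 8.01 ± 1.46 (adjusted p = 4.42e-06, edgeR). Tspan14 was 0.154 and 0 CPM against 25.2 to 62.4 CPM and fell by 7.96 ± 1.04 (adjusted p = 1.44e-09, edgeR). In somatic against germ cells of E11.5 to E18.5, 8 of the 15 were higher and 2 lower, against 24.1% and 27.1% of all genes. Timp3, an inhibitor of ADAM10 and ADAM17, was 26.5 to 159 CPM against 0.5 to 9.14 CPM, a difference of 4.8 ± 0.39 (adjusted p = 1.58e-18, edgeR).

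The third list held 19 proteins that are shed. In somatic against germ cells of E11.5 to E18.5, 11 were higher and 3 lower, against 24.1% and 27.1% of all genes, with a median of 1.42 over the list and -0.37 over all genes. Kitl, the ligand of the Kit receptor of germ cells, was 61.8 to 432 CPM against 0.0416 to 9.04 CPM, a difference of 5.91 ± 0.39 (adjusted p = 1.51e-23, edgeR). Cdh1 was lower in somatic cells, at 0 to 8.56 CPM against 1.86 to 80.2 CPM, by -3.72 ± 0.51 (adjusted p = 1.26e-09, edgeR). In 4N cells against PND10 to PND14, 3 rose (Cdh2, Notch1 and Tgfa) and 5 fell, against 32.6% and 18.2% of all genes. Cdh2, the gene of N-cadherin, was 139.5 and 166 CPM against 11.3 to 30.4 CPM and rose by 3.86 ± 0.64 (adjusted p = 6.41e-07, edgeR).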

How the data were processed

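Single cells of wild-type mouse embryos and testes were profiled by a modified STRT-seq protocol that counts the 3′ ends of transcripts by UMI. Per the labels and the methods of the study, the authors used CASAVA 1.8, UMI-tools, STAR on mm10 and featureCounts (Subread), and deposited a table of UMI counts per gene and cell with no normalization. Cells with over 2000 genes and 10000 to 1000000 UMIs were kept. The groups were read from the deposited cell table and the cell names, since the sample labels do not give them. Counts were summed by time-point, replicate and class (pools of at least 10 cells), with germ or somatic class where the marker sum was at least 2 times the other sums plus 10 CPM.

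One edgeR 4.0.16 quasi-likelihood fit (TMM, filterByExpr, R 4.3.3) covered all classed wild-type pools and 27459 genes, with Benjamini-Hochberg adjustment over all of them and a threshold of 0.05. It was also run on simulated counts of independent pools, with no pairing by animal and no differences between time-points of a group. The outcome of that run is not given here and is not used as support. Fold changes are fitted log2 differences with SE. TMM scaling moved the fitted differences against the log2 ratio of CPM by -0.11 to 0.92. DESeq2 1.42.0 was an alternative. Gene models came from GENCODE M21 and promoters from RefSeq, both on mm10.

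Values per pool are given for Adam2, Adam3, Adam9, Adam10, Adam17 and Adam19 and, in each comparison, for up to 3 rising and 3 falling members with the largest change past the threshold and a mean log2 CPM of at least 3. Other members are named to account for the family. Members, lists and tests were chosen with earlier results of these data known, and the restriction of the endoderm markers and the stage groups with the values in view. Same-numbered pools of a time-point come from the same animals, which is where the pairing comes from. The correlation of their deviations was -0.02 for 1N and 4N cells, 0.04 to 0.36 for spermatid and spermatocyte class, -0.02 to 0.31 for somatic and germ cells before birth and 0.14 to 0.33 after birth.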

Additional observations from a re-analysis of the deposited data

Results flagged for a closer look

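In 52 groups of 4 to 10 pools, 13 values of a member lay far from the others of their group. The rule is set to mark about 1 in 20 groups of alike pools. Here the members share pools and groups mix time-points, so the 13 values cannot be set against that rate. Among spermatocyte-class pools, 8 of them were in adult replicate 1, which held 20.48 CPM of Adam1b, 256 CPM of Adam2, 117.2 CPM of Adam5, 23.6 CPM of Adam10, 32.5 CPM of Adam15, 8.57 CPM of Adam18, 10.2 CPM of Adam30 and 56.8 CPM of Adam32. Adam10 and Adam15 were higher there than in the other 3 pools and the other 6 genes lower. The pool held 581 CPM of somatic markers. It also held the least Prm1 of its class, with 39.4 CPM against 82.3 to 181.4 CPM in the other 3 pools. Neither the part of the somatic markers nor that of the germ cell makeup was tested.

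In PND10 to PND14 germ cells, 4 values were in replicate 2 of PND12, with 33.1 CPM of Adam1b, 82.6 CPM of Adam3, 31.7 CPM of Adam18 and 127.3 CPM of Adam32. Adam17 was 35.2 CPM in replicate 2 of E10.5, above the other germ cell pools of E9.5 to E10.5.

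The response of Adam10 differed by 4.79 on the log2 scale between 1N over 4N cells and spermatid over spermatocyte class. The somatic difference from germ cells changed from before to after birth by -1.59 for Adam10, -2.44 for Adam11, -2.27 for Adam23, -4.17 for Adam30, -3.91 for Adam4 and -4.9 for Adam21, each past an adjusted p of 0.05 (edgeR interaction term). Of all 27459 genes 20.1% passed this threshold, so such a change was common. The Adam4 value rests on 2 somatic UMIs after birth and the Adam21 value on 29 somatic UMIs before birth. The Adam30 value also rests on few somatic UMIs after birth.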

How the results depend on the processing

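Counts of called members stayed within 1.5 times of the reported ones under median-of-ratios scaling, no count filter, at least 20 cells per pool and all deposited cells. Without 1 replicate number they were 0 to 0 (E11.5 to E13.5, reported 1), 4 to 6 (E14.5 to E16.5, 12), 4 to 5 (PND2 to PND8, 16), 0 to 7 (PND10 to PND14, 15), 19 to 22 (4N, 24), 0 to 1 (1N, 1), 3 to 4 (spermatid class, 15), 5 to 8 (somatic before birth, 11), 8 to 10 (somatic after birth, 14) and 0 to 0 (somatic after against before birth, 4). With only the pools of the 2 groups they were 0, 7, 8, 12 and 2 for E11.5 to E13.5, E14.5 to E16.5, PND10 to PND14, 1N and somatic after against before birth. With DESeq2 they were 10 for PND2 to PND8, 8 for PND10 to PND14 and 6 for the spermatid class. For PND2 to PND8 they were 7 with a 4-fold marker excess and 8 without PND8 and E17.5, for PND10 to PND14 3 without Prm1-bearing pools, and for 1N 7 without spermatid-class cells. With the replicate as a block they were 14 for 1N and 6 for somatic cells before birth, and 22 against 15 and 13 against 14 in the spermatid class and after birth. The counts under these settings stand without the share of all genes.

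Of 998 alternatives of 85 named member results, 861 kept direction and side of the threshold, 84 lost the call, 40 gained it and 13 turned. For PND2 to PND8 Adam20 was -0.62 and Adam29 0 without PND8 and E17.5, and Adam20 -0.40, Adam26b -0.32 and Adam29 0 without Prm1-bearing pools. For PND10 to PND14 leaving out replicate 2 or 1 gave Adam2 -0.077 to 2.33, Adam3 -0.058 to 4.20 and Adam18 -0.42 to 4.65, and Adam2 -0.41 without Prm1-bearing pools. Adam10 in the spermatid class was 0.30 without adult replicate 1 and 0.13 with the replicate block. Adam29 in somatic cells before birth was 0 with a 4-fold marker excess and 0 to 4.42 without replicate 2 or 1. The settings on Prm1, adult replicate 1 and spermatid-class cells were chosen after seeing the data. Apart from settings that use fewer pools, the cause was not tested. Members with under 3 UMIs in a group cannot be sized at this depth.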

Other observations

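Adam3 was 7.88 CPM in replicate 2 of E6.5 and 7.57 CPM in replicate 2 of E7.5, against a median of 0.107 CPM over the 10 embryo pools. These pools held 11.3 and 20.9 CPM of Prm1, while replicate 3 of E7.5 held 12.1 CPM of Prm1. The part of these cells in the values was not tested.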
